A study of Mus musculus with 24 samples.

Results

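The 35 genes described here are the transcription factor gene Myc and 34 genes whose products make ribosomes, read in the mammary gland of mice given progesterone or its oil vehicle. They were listed by gene symbol with no cut-off on a measured value, but with earlier results of these data known. Each was read from the probe set that names it alone and has the highest mean log2 intensity over the 24 arrays. All 35 members passed the filter on low values and were tested among 12336 genes. Ribosomes are assembled in the nucleolus, where RNA polymerase I transcribes the ribosomal RNA precursor. Small nucleolar ribonucleoproteins (snoRNPs) then guide the chemical modification of that RNA, 2'-O-methylation by the C/D class and pseudouridylation by the H/ACA class, and a long series of factors folds, cuts and assembles the small and the large subunit. Myc, which binds DNA as a dimer with Max, is known to drive transcription of many of these genes in growing cells, and progesterone is known to drive growth of the mammary epithelium.

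The mice were nulliparous Balb/c females whose ovaries had been removed when they were 6 weeks old, which takes away their own ovarian hormones, and treatment began 2 weeks later. The 4 treated groups received 1 mg of progesterone in 100 µl of sesame oil under the skin each day and tissue was taken 4, 16, 28 or 76 h from the first dose. The 4 control groups received 100 µl of oil, with tissue taken at the same times. Time from the first dose, number of doses and time since the last dose cannot be told apart. Each group holds 3 arrays of the Affymetrix Mouse Genome 430 2.0 type and each array carried RNA pooled from 5 mice, so that a p-value measures the spread between pools.

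The array medians lay between 62.8 and 70.2 in intensity, and arrays of a group correlated across probe sets with r from 0.965 to 0.993. The tissue's defining markers were present on the 76 h oil arrays, with the fat cell hormone gene Adipoq at 11270 and the luminal keratin gene Krt8 at 796 (mean intensities, n = 3). The tissue is whole gland, and in such samples more cells of a type and more RNA per cell cannot be told apart. In what follows a gene is called when limma gives an adjusted p under 0.05 over the 12336 genes, and a difference is progesterone minus oil on the log2 scale.

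At 76 h, 9 of the 35 genes rose with progesterone and 1 fell. The 9 were Myc, the nucleolar proteins Ncl and Npm1, the H/ACA snoRNP proteins Gar1 and Nhp2, the C/D snoRNP proteins Fbl and Nop56, and the assembly factors Pes1 and Utp20, with differences from 0.29 to 0.96. The gene that fell was Bysl, a factor of small subunit assembly, by 0.38 on the log2 scale. Of all genes tested, 17.7% were called at that time, 11.0% as higher and 6.67% as lower; among the 35 the shares were 28.6%, 25.7% and 2.86%. The median difference of the 35 was 0.27 and that of all genes 0.02. The difference was above 0 for 31 of the 35 and for 54.0% of all genes. The 3 progesterone arrays lay above the 3 oil arrays without overlap for 22 of the 35, against 25.7% of all genes, and below them for 1, Bysl, against 19.0% of all genes.

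**Figure D1:**
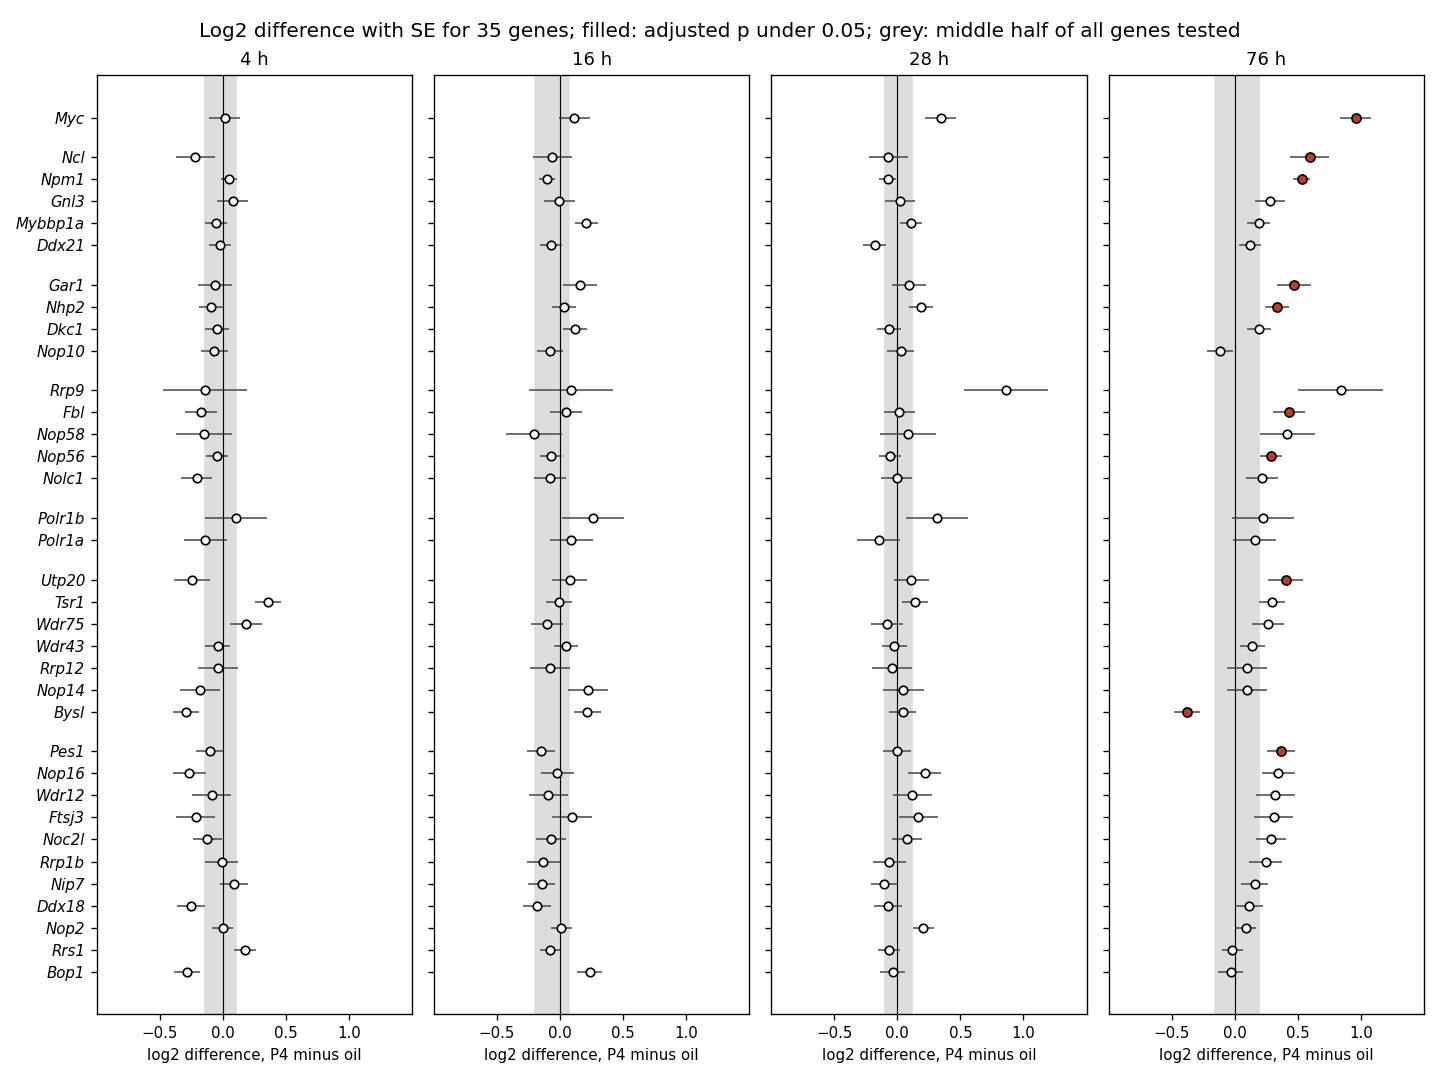
Log2 difference (progesterone, P4, minus oil) with its SE for each of the 35 genes at 4, 16, 28 and 76 h, grouped from top to bottom as Myc, nucleolar proteins, H/ACA snoRNP, C/D snoRNP, RNA polymerase I, small subunit and large subunit factors. Filled points were called by limma, the grey band holds the middle part of all genes tested (25th to 75th percentile), and all 10 filled points lie in the 76 h panel, with Bysl the only one of them to the left of 0.

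No member was called at 4, 16 or 28 h. At these times 0.186%, 0.308% and 2.54% of all genes were called by limma. The low shares at 4 and 16 h depended on single arrays. Without progesterone replicate 3 at 4 h, 477 genes were called at 4 h in place of 23. Without progesterone replicate 1 at 16 h, 1845 were called at 16 h in place of 38. At an unadjusted p under 0.05 5 members passed at 4 h, 2 passed at 16 h, 3 at 28 h and, for comparison, 18 at 76 h. The shares of all genes that passed in the same way were 12.6%, 17.7%, 12.4% and 29.5%. In the order of these times, the medians of the 35 differences were -0.07, -0.01 and 0.02, beside -0.01, -0.07 and 0.00 for all genes. The 5 at 4 h were Tsr1 (0.36, adjusted p = 0.146, the lowest of any member at that time), Rrs1 (0.18), Ddx18 (-0.25), Bop1 (-0.28) and Bysl (-0.29). Those at 16 h were Bop1 (0.24) and Mybbp1a (0.21), and those at 28 h were Myc (0.34), Nop2 (0.21) and Rrp9 (0.86). Bop1 thus read lower at 4 h and higher at 16 h, neither of them called.

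The hexamer CACGTG, a palindromic E-box and a known binding site of the Myc and Max dimer, was looked for in the promoter windows of the genes because the set pairs Myc with genes it is known to act on. A window is the RefSeq sequence on GRCm38.p6 from 250 bases before a transcript's start to 50 after it, and 29 of the 35 genes had at least 1 window. Those without an entry are Myc, Npm1, Fbl, Bop1, Rrs1 and Rrp12. The motif reads the same on both strands and overlaps no other motif searched. The 6 genes that hold it follow as 30 bases of the gene's own strand, 5′ to 3′, with the hexamer in capitals.
Pes1 (chr11:3963965-3963994, + strand): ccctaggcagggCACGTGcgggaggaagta
Utp20 (chr10:88826765-88826794, - strand): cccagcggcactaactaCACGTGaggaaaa
Wdr43 (chr17:71616220-71616249, + strand): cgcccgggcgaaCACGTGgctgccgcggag
Tsr1 (chr11:74898092-74898121, + strand): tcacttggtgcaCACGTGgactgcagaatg
Mybbp1a (chr11:72441347-72441376, + strand): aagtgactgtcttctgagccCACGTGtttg
Nop2 (chr6:125131811-125131840, + strand): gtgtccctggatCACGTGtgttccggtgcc
The hexamer stood in a window of 6 of 29 members (20.7%), of 11.6% of the genes tested that have a window, of 8.09% of 27025 genes with a window and of 20 of 109 other ribosome biogenesis genes (18.3%). In 5 of the 6 it lay within the 50 bases after the start, in the part that is transcribed. That place held it in 17.2% of the members, 9.17% of the other ribosome biogenesis genes, 2.25% of the genes tested and 1.55% of all genes with a window. In Nop2 it lay before the start, where 3.45% of the members, 11.0% of the other ribosome biogenesis genes and 9.83% of the genes tested had it. Of the 6 genes, Pes1 and Utp20 were called higher at 76 h, whereas Tsr1 (0.30, adjusted p = 0.0521), Mybbp1a (0.19), Wdr43 (0.14) and Nop2 (0.09) were not. A match of 6 letters describes the sequence and no binding was measured.

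Myc, whose product is a transcription factor of growth and the cell cycle, had the largest difference of the 35 at 76 h. Its intensities there were 345, 319 and 359 on the oil arrays and 760, 625 and 611 on the progesterone arrays. All 3 progesterone values stood well above all 3 oil values. The means were 341 ± 20.7 and 665 ± 82.5 (SD, n = 3), a log2 difference of 0.96 ± 0.12 (SE) or 1.94-fold, with an adjusted p of 3.99e-06 in limma. At 28 h the oil arrays read 360, 376 and 323 and the progesterone arrays 475, 428 and 439. The groups again did not overlap, but the difference of 0.34 ± 0.12 was not called (adjusted p = 0.167). At 16 h the values were 318, 349 and 346 in oil and 433, 300 and 375 with progesterone, and at 4 h 306, 314 and 344 against 359, 285 and 335. At both early times the groups overlapped, with differences of 0.11 and 0.02. The oil arrays of the 4 times had means between 321 and 353, so that the change lay in the progesterone arrays.

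**Figure D2:**
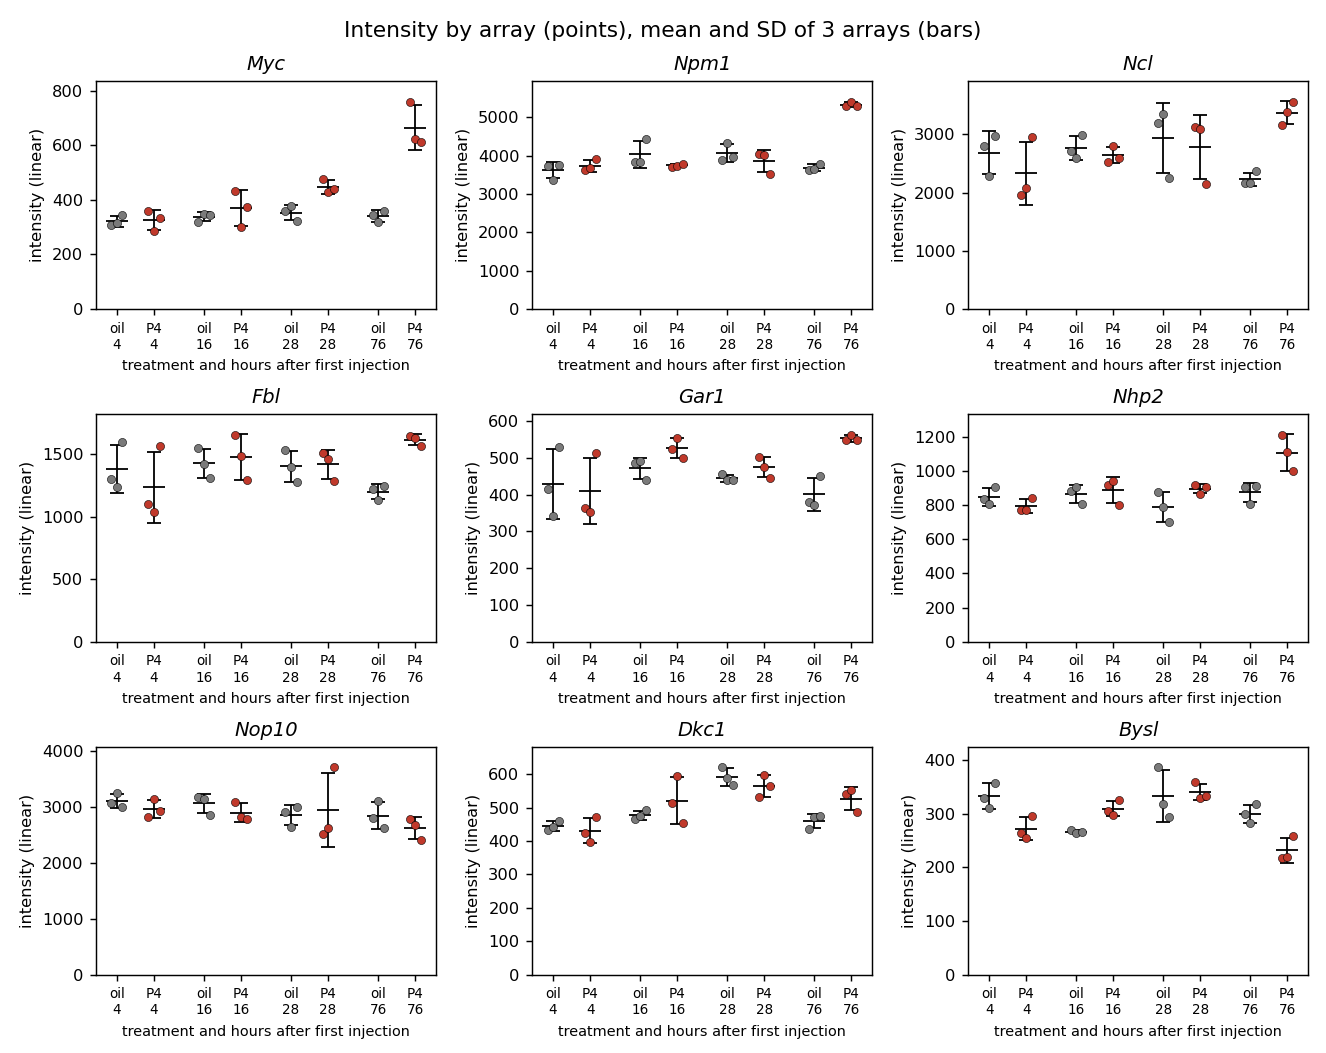
Intensity on a linear axis from 0 for Myc, Npm1, Ncl, Fbl, the 4 H/ACA proteins (Gar1, Nhp2, Nop10, Dkc1) and Bysl, by treatment (P4 is progesterone) and hours after the first injection; points are arrays and bars the mean and SD of 3 arrays. The Myc values of 611 to 760 and the Npm1 values of 5284 to 5403 at 76 h with progesterone stand above every other array of the same gene, and the Bysl values at 76 h with progesterone are 218, 218 and 258.

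Among the nucleolar proteins, Npm1 and Ncl rose at 76 h. Npm1 (nucleophosmin), a chaperone of the nucleolus, read 3612, 3651 and 3789 in oil and 5300, 5403 and 5284 with progesterone. The 3 treated arrays lay close to each other and far above the controls. The difference was 0.53 ± 0.07 or 1.45-fold (adjusted p = 3.25e-06). At 4, 16 and 28 h it was 0.05, -0.10 and -0.08, and none was called. Ncl (nucleolin), which binds ribosomal RNA precursor and chromatin in the nucleolus, read 2169, 2157 and 2361 in oil and 3168, 3380 and 3560 with progesterone at 76 h. These groups did not overlap either, and the difference was 0.60 ± 0.15 or 1.51-fold (adjusted p = 0.00775). Its 76 h oil arrays were also the lowest oil group, since the oil means at 4, 16 and 28 h were 2686 ± 365, 2761 ± 202 and 2930 ± 600. The other nucleolar genes were not called at 76 h. Gnl3 (nucleostemin, a GTP-binding protein) had a difference of 0.28 (adjusted p = 0.121), Mybbp1a, a Myb-binding nucleolar protein, 0.19 (0.156) and the RNA helicase Ddx21 0.12 (0.403). For each of these the 3 progesterone arrays lay above the 3 oil arrays.

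The H/ACA snoRNP core consists of 4 proteins, and 2 of their genes rose at 76 h. Gar1 read 379, 371 and 451 in oil and 547, 563 and 548 with progesterone, without overlap. Nhp2 read 904, 807 and 908 against 1212, 1109 and 996, also without overlap. Both were called, Gar1 at 0.47 ± 0.14 (1.39-fold, adjusted p = 0.0167) and Nhp2 at 0.34 ± 0.09 (1.26-fold, adjusted p = 0.0147). Dkc1 (dyskerin), the pseudouridine synthase itself, read 434, 472 and 473 in oil and 540, 552 and 487 with progesterone. Its groups did not overlap, but the difference of 0.19 ± 0.10 was not called (adjusted p = 0.179). Nop10, the smallest of the 4 proteins, read 2802, 3104 and 2619 in oil and 2777, 2676 and 2398 with progesterone. These groups overlapped and the difference was -0.12 ± 0.10 (adjusted p = 0.5). A second probe set of Nop10 read -0.24 and a second of Nhp2 0.42. Whether Nop10 differs from its partners in response was not tested. At the 3 earlier times the differences of the 4 genes lay between -0.10 and 0.19, and none was called.

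The C/D snoRNP genes were all above 0 at 76 h, with a median of 0.42 over 5 genes, and Fbl and Nop56 were called. Fbl (fibrillarin), the methyltransferase of these particles, read 1222, 1134 and 1248 in oil and 1649, 1631 and 1569 with progesterone, without overlap. The difference was 0.43 ± 0.13 or 1.35-fold (adjusted p = 0.02). Nop56, a core protein that bridges the particle, rose from 736 ± 38.3 to 898 ± 18.8, a difference of 0.29 ± 0.09 (adjusted p = 0.0258). Its partner Nop58 had a difference of 0.42 with a wider error of 0.22 and overlapping arrays (adjusted p = 0.213). Nolc1, a chaperone that shuttles snoRNPs, stood at 0.22 (adjusted p = 0.26). Rrp9, a protein specific to the U3 particle, had the widest scatter of the 35. Its 76 h arrays read 217, 205 and 360 in oil and 342, 449 and 599 with progesterone, overlapping, with a difference of 0.84 ± 0.33 (adjusted p = 0.0873).

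The subunits of RNA polymerase I showed no called difference at any time. Polr1a, its largest subunit, had differences between -0.15 and 0.16 over the 4 times, and Polr1b, the second largest, between 0.10 and 0.31. At 76 h they were 0.16 ± 0.17 and 0.23 ± 0.25, and the arrays of the groups overlapped for both.

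Of 7 small subunit factors, Utp20 rose and Bysl fell at 76 h. Utp20, a large scaffold protein of the small subunit precursor, read 224, 227 and 227 in oil and 308, 301 and 289 with progesterone. The groups did not overlap, and the difference was 0.40 ± 0.14 or 1.32-fold, with an adjusted p of 0.0478 just under the threshold. Bysl (bystin), which is needed late in maturation of the small subunit, read 299, 283 and 317 in oil and 218, 218 and 258 with progesterone. It was the only member whose treated arrays all lay below the controls at 76 h, 1.30-fold lower, with a difference of -0.38 ± 0.10 (adjusted p = 0.0139). A second probe set of Bysl read -0.44. At 16 h its arrays lay the other way, 269, 263 and 266 in oil and 305, 297 and 326 with progesterone, and that difference of 0.22 was not called. Tsr1, a GTPase-like factor that holds the late small subunit precursor, stood just outside the threshold at 76 h, from 667 ± 17.1 to 819 ± 23.0 (0.30, adjusted p = 0.0521). Wdr75 (0.27) and Wdr43 (0.14), components of the early small subunit processome, had treated arrays above the controls without being called. Nop14 and Rrp12 had differences of 0.10 each and overlapping arrays, and Rrp12 was the gene among the 35 that had an array under the array median.

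Among 11 large subunit and other factors, Pes1 alone was called at 76 h. Pes1 (pescadillo), which acts in the large subunit precursor as a complex with Bop1 and Wdr12, read 364, 399 and 423 in oil and 494, 499 and 535 with progesterone. The groups did not overlap, and the difference was 0.37 ± 0.11 or 1.29-fold (adjusted p = 0.0245). A second, dimmer probe set of Pes1 read 0.04, so that the 2 probe sets of this gene disagree in size. Its partners gave other values. Wdr12 stood at 0.32 ± 0.15 without overlap (adjusted p = 0.164), and Bop1 at -0.03 ± 0.10 with overlap (adjusted p = 0.877). Nop16 had a difference of 0.35 (adjusted p = 0.0703), Ftsj3, an RNA methyltransferase, 0.31, Noc2l 0.29 and Rrp1b 0.25, each with treated arrays above the controls and none called. The values of Nip7 (0.16), the helicase Ddx18 (0.12), the RNA methyltransferase Nop2 (0.09) and Rrs1 (-0.02) came from arrays that overlapped.

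Other probe sets of the same genes were set beside these values. The 35 genes have 70 probe sets with a single symbol, of which 62 passed the filter, and 22 genes had more than 1 that passed. In 19 of the 22 all passing probe sets had the same sign at 76 h; the exceptions were Ddx18, Nip7 and Rrs1, none of them called. For Ncl the 3 passing probe sets read 0.60, 0.44 and 0.58, for Npm1 0.53 and 0.53, for Fbl 0.43 and 0.38 and for Nop56 0.29 and 0.36. Myc, Gar1 and Utp20 rest on a single probe set.

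The calls of Myc, Ncl and Npm1 held in all 24 fits that left out 1 array, and the other 7 depended on single arrays of the 76 h groups. Of 10 members called, 4 were called without progesterone replicate 1 at 76 h (Myc, Ncl, Npm1 and Gar1) and 4 without progesterone replicate 2 (Myc, Ncl, Npm1 and Nhp2). There were 5 without oil replicate 2, 6 without oil replicate 1, 7 without oil replicate 3 and 8 without progesterone replicate 3 at that time. Without oil replicate 3 Rrp9 was called as well. Over all genes the fits without a 76 h array called 1375 to 1879 at 76 h, beside 2182 in the main fit. Pes1 lost the call without any of 5 of these 6 arrays, at an adjusted p of at most 0.12. Gar1, Nhp2, Fbl, Nop56 and Bysl lost it without 2 to 4 of them, at an adjusted p of at most 0.109. Utp20 was called in 9 of the 24 fits, with an adjusted p of up to 0.14. Over the 24 fits the median of the 35 differences at 76 h lay between 0.25 and 0.28.

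The size of the progesterone difference was compared between times within the same fit, where the differences share no array. It differed between the 4 times for 4 members (11.4%), Myc, Ncl, Npm1 and Bysl, by a moderated F-test, a share near the 9.98% of all genes. The difference at 76 h lay above that at 4 h for 7 members (20%, beside 5.96% of all genes). It lay above that at 16 h for 3 (8.57%, beside 8.56%) and above that at 28 h for 2 (5.71%, beside 4.47%). The shares against 16 and 28 h are thus near those of all genes. For Myc it was higher at 76 h by 0.94 ± 0.17 than at 4 h, by 0.85 ± 0.17 than at 16 h and by 0.62 ± 0.17 than at 28 h, with adjusted p from 0.00095 to 0.027. For Npm1 the same values were 0.48, 0.64 and 0.61 (SE 0.09), called at each. The others were Ncl (0.81), Utp20 (0.65), Fbl (0.61), Nop16 (0.61) and Nhp2 (0.43) against 4 h and Pes1 (0.52) against 16 h. In the other direction, Bysl was called against 16 h, at -0.59 ± 0.15 (adjusted p = 0.0109 in limma). The counts of members higher at 76 h and of the F-test rested on single arrays. How many of all genes these comparisons called without an array was not counted, so the counts that follow have no background share. The 7 members against 4 h became 2 without progesterone replicate 1 or 2 at 4 h or oil replicate 1 or 2 at 76 h. They became 3 without oil replicate 3 at 4 h or 76 h or progesterone replicate 1 at 76 h, and 4 without oil replicate 2 at 16 h or progesterone replicate 2 or 3 at 76 h. The 3 against 16 h became 8 without progesterone replicate 1 at 16 h. The 2 against 28 h became 4 without oil replicate 3 at 28 h and 1 without oil replicate 1 or 2 at 28 h, oil replicate 1 or 2 at 76 h or progesterone replicate 1 at 76 h. The 4 of the F-test became 9 without progesterone replicate 3 at 4 h. They became 2 without oil replicate 2 at 16 h, oil replicate 1 or 3 at 76 h or progesterone replicate 1 or 2 at 76 h.

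The oil arrays were not level across times, and the 76 h oil arrays had the lowest mean level of the oil groups. No contrast of the 76 h oil arrays with the other oil arrays was run. A moderated F-test over the 4 oil groups called Ddx21 (adjusted p = 0.00238), Dkc1 (0.0187), Bop1 (0.0219) and Rrp9 (0.0309). It called none of the members that rose at 76 h, and its share over all genes was not counted. The level of the 34 biogenesis genes without Myc is given as the mean log2 deviation of each gene from its own mean over the 24 arrays. The 76 h oil arrays stood between -0.14 and -0.07 and the 76 h progesterone arrays between 0.11 and 0.15. The oil groups of 4, 16 and 28 h had mean levels of -0.03, 0.02 and -0.0013, and the progesterone groups of these times -0.10, 0.02 and 0.05. Single oil arrays ranged from -0.11 to 0.08 at 4 h, -0.05 to 0.08 at 16 h and -0.10 to 0.09 at 28 h. Those of 4 and 28 h thus overlapped the 76 h oil arrays. With the oil arrays of 4, 16 and 28 h as controls, the 76 h progesterone arrays gave a median difference of 0.15 for the 35 genes and -0.01 for all genes. This comparison shares its progesterone arrays with the main 76 h comparison.

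Against those other oil arrays, 9 members were called higher at 76 h, beside 16.8% of all genes, and 1 lower, beside 15.7%. Myc (0.98), Npm1 (0.45), Nhp2 (0.41), Pes1 (0.34), Nop56 (0.31) and Gar1 (0.31) were called higher with either set of controls, and Bysl (-0.42) was called lower with either. Ncl (0.28, adjusted p = 0.0902), Fbl (0.21, 0.129) and Utp20 (0.25, 0.0983) were not called against the other oil arrays. Tsr1 (0.42), Wdr12 (0.34) and Nop16 (0.29) were called there and not against their own controls. At 28 h Myc was called against the other oil arrays (0.43 ± 0.10, adjusted p = 0.0361), alone among the 35 and beside 0.875% of all genes. At 16 h no member was (4.52% of all genes). At 4 h Ddx18 (-0.36, adjusted p = 0.0208) and Ddx21 (-0.30, adjusted p = 0.0175) were called lower, beside 6.53% of all genes.

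**Figure D3:**
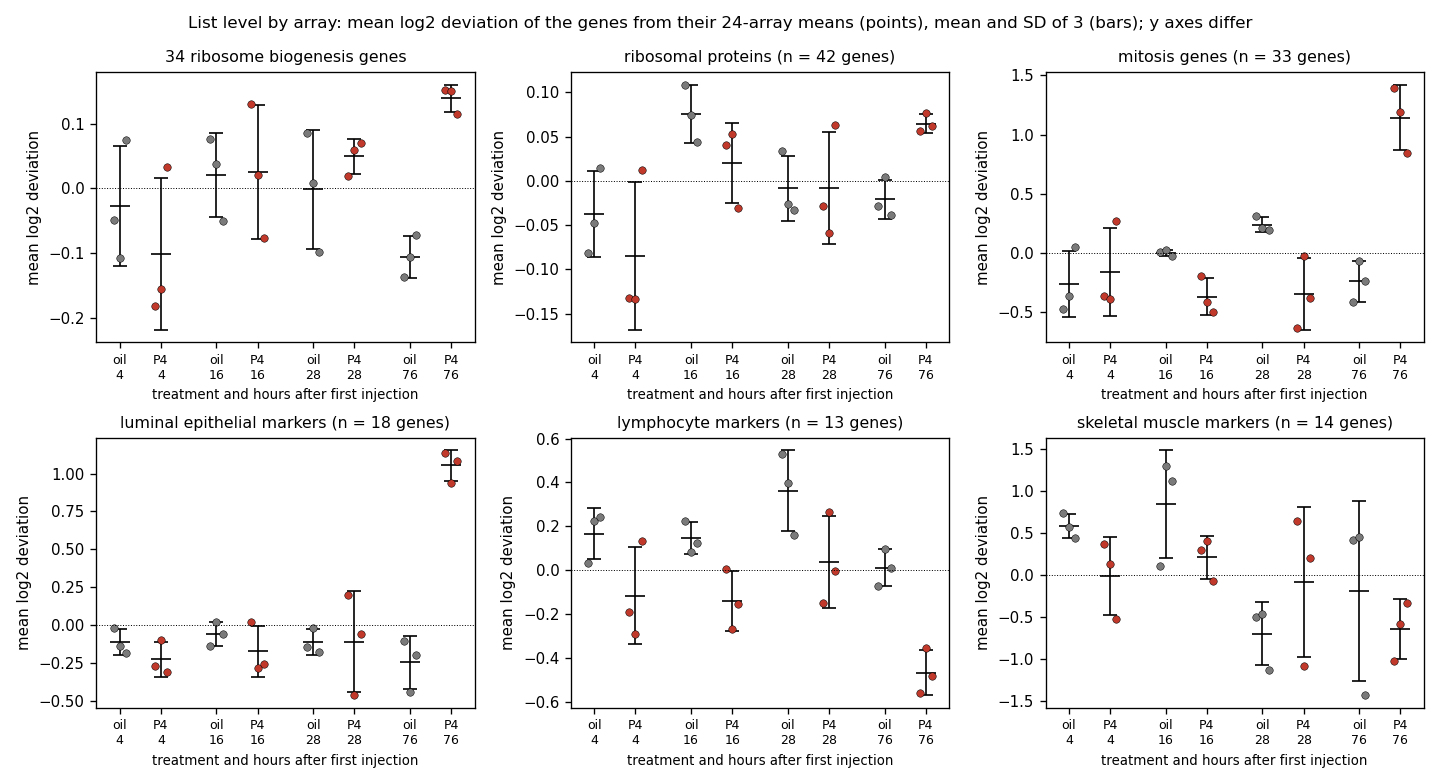
Mean log2 deviation of the genes of a list from their own 24-array means, for each array (points) with the mean and SD of 3 arrays (bars), by treatment and hours after the first injection; the y axes differ between panels. The 34 ribosome biogenesis genes stand at 0.11 to 0.15 on the 76 h progesterone arrays, the luminal markers at 0.94 to 1.14 and the mitosis genes at 0.85 to 1.40 on the same arrays.

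The 28 h oil arrays stood apart from the other oil arrays. Of the members 3 (8.57%) were called there, a share near the 7.61% of all genes. Rrp9 read 157, 168 and 174 on the 28 h oil arrays and 189 to 577 on the other 9 oil arrays. It was lower on the 28 h oil arrays by a log2 difference of -1.02 ± 0.27 (adjusted p = 0.0215), with no overlap. Dkc1 read 620, 589 and 568 there and 432 to 492 on the other oil arrays, also without overlap (0.36 ± 0.08, adjusted p = 0.00404). Ddx21 read 1042, 926 and 946 there and 665 to 880 on the others (0.37 ± 0.07, adjusted p = 0.00177). The 28 h progesterone difference of 0.86 for Rrp9 is therefore read against an oil group that is itself low. Against the other oil arrays no 28 h difference of Rrp9, Dkc1 or Ddx21 was called. On the same 28 h oil arrays the plasma cell markers were higher than on the other oil arrays (6 of 7 called, median 1.02) and the skeletal muscle markers lower (6 of 14, median -1.08). Macrophage markers (9 of 11, median -0.55) and fibroblast and matrix markers (9 of 11, -0.49) were lower there too, and mitosis (6 of 33, 0.42) and replication genes (5 of 28, 0.26) higher. Their part in the values of Rrp9, Dkc1 and Ddx21 was not tested.

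**Figure D4:**
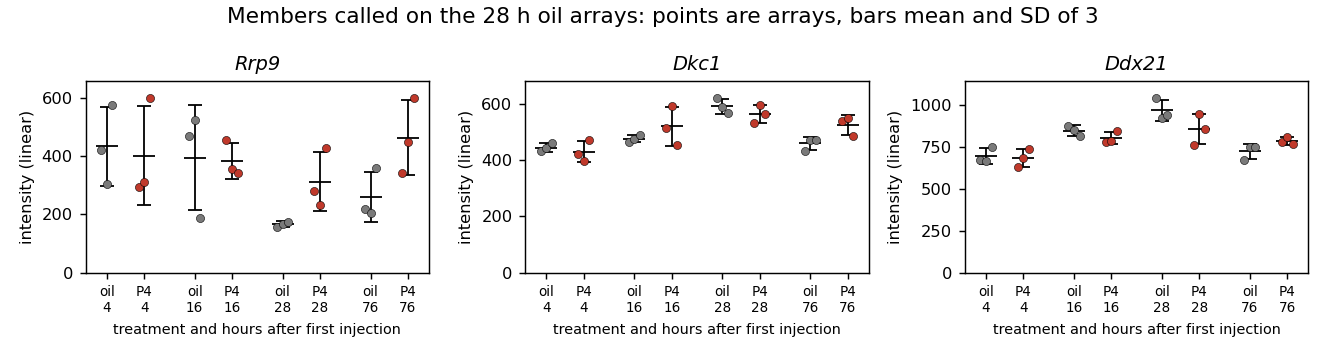
Intensity on a linear axis from 0 of Rrp9, Dkc1 and Ddx21, by treatment and hours after the first injection; points are arrays and bars the mean and SD of 3 arrays. On the 28 h oil arrays Rrp9 sits at 157 to 174, below all other oil arrays, while Dkc1 at 568 to 620 and Ddx21 at 926 to 1042 sit above all other oil arrays.

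Further genes of ribosome biogenesis were taken from lists of small and large subunit factors, RNA polymerase I, snoRNP assembly and the RNA exosome. Of 124 such genes tested at 76 h, 9 were called higher (7.26%, beside 11.0% of all genes) and none lower, 92 were above 0 and the median was 0.10. At 4, 16 and 28 h none of the 124 was called by limma. By role at 76 h, 3 of 8 further snoRNP assembly genes rose, namely the helicases Ruvbl2 (0.44) and Ruvbl1 (0.34) and the zinc finger protein Znhit6 (0.38). Of 47 further large subunit factors 3 rose, Gnl2 (0.42), Pelp1 (0.37) and Nop53 (0.31), and of 43 further small subunit factors 2, Utp11 (0.33) and Utp3 (0.32). Mphosph6 (0.35), a partner of the RNA exosome, rose alone among 13 exosome genes. None of 13 further genes of RNA polymerase I and its factors was called (median 0.10). The ribosomal proteins themselves had a median of 0.06 over 42 genes tested of 78 listed, with 3 called, Rpl14 (0.94), Rps6 (0.51) and Rpl10a (0.16).

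In the network of Myc and its relatives, 2 of 13 genes rose and 2 fell at 76 h (median 0.01). Of all genes tested, 11.0% were called higher and 6.67% lower at that time. Mycl, another Myc family gene, rose from 54.7 to 95.7, with its oil mean under the array medians (0.82, adjusted p = 0.00478). Mlxipl and Mlx, a sugar-responsive transcription factor and its dimer partner, fell by 0.93 and 0.61 on the log2 scale. Max itself read -0.10 (adjusted p = 0.927) and Mycn 0.01 (adjusted p = 0.988). Of 26 known Myc targets outside ribosome biogenesis, 9 rose and 1 fell at 76 h (median 0.24), led by the cell cycle kinase Cdk4 (0.85), the RNA-binding protein Hnrnpa1 (0.58) and the arginine methyltransferase Prmt1 (0.57). At 28 h the transferrin receptor gene Tfrc was the only one of the 26 called, and it fell by 0.66. Of 25 translation factors 8 rose at 76 h (median 0.16), among them the initiation factor genes Eif4b (0.47), Eif3a (0.27) and Eif3i (0.26).

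Markers of cell types and of division moved on the same 76 h arrays. Of 18 luminal epithelial markers 15 rose (median 1.35), led by Ehf (2.66), Elf5 (2.36) and Cldn7 (2.07), and of 15 basal markers 10 rose (median 0.71), led by Krt15 (3.26), Trp63 (2.65) and Krt17 (2.07). Of 33 mitosis genes 32 rose (median 1.40), among them Melk (2.17), Ccnb2 (2.05) and Ttk (2.03), and of 28 replication genes 20 (median 0.65), among them Uhrf1 (1.49), Mcm6 (1.29) and Tk1 (1.29). Fibroblast and matrix markers rose for 8 of 11 (median 0.52). Lymphocyte markers fell for 9 of 13 (median -0.49), endothelial markers for 5 of 10 (-0.37) and white adipocyte markers for 4 of 12 (-0.26), while 1 of 11 macrophage markers rose and no muscle or plasma cell marker was called. The luminal level was 0.94 to 1.14 on the progesterone arrays and -0.44 to -0.11 on the oil arrays, and the mitosis level 0.85 to 1.40 and -0.42 to -0.07. The dimmest luminal marker on the 76 h oil arrays was Ehf, at 58.6 and under the array medians, and Elf3 (-0.09), Prom1 (0.18) and Esr1 (0.23) were those not called. The part of these shifts in the rise of Myc and the biogenesis genes was not tested. At 28 h 5 of the 33 mitosis genes fell, Ncapg (-1.07), Mki67 (-0.95) and Ube2c (-0.88) among them, against oil arrays whose mitosis level was itself high. The mean mitosis level was 0.24 on the 28 h oil arrays and -0.35 on the 28 h progesterone arrays. On the oil arrays of 4, 16 and 76 h it was -0.26, 0.0015 and -0.24.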

How the data were processed

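RNA of mammary glands, pooled from 5 mice, was labelled with biotin and hybridized to 1 array per pool, per the labels' protocols. The deposited values are linear intensity values of 45101 probe sets on 24 arrays, as their range shows. How they were summarized and scaled is not given in the sources used here. The log2 array medians spanned 0.16, so no further scaling was done.

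A floor of 7.38, the table's 10th percentile, was applied before log2 and touched no member. The platform annotation of 2016 gives 34945 probe sets 1 symbol, 932 several and 9160 none; 64 control probe sets were left out. A gene was read from its single-symbol probe set with the highest mean, which had to exceed the array median on at least 3 arrays. The 8 groups were fitted in 1 model with limma 3.58.1 in R 4.3.3 (intensity trend, 16 residual degrees of freedom), with Benjamini-Hochberg adjustment over 12336 genes. Tests are two-sided, errors of intensities are SD and errors of differences SE. The 76 h comparison was also simulated over 12336 genes, 200 of which were given a change. A simulated log2 difference of 0.5 was called in 45% of cases and one of 1 in 88%. Genes left without a change made up 4.32% of the calls. The real 76 h comparison called 2182 genes, more than the 200 altered in the simulation. These shares therefore describe the simulation only. The 3 arrays per group limit the precision. Replicate numbers did not meet the criterion for pairing the arrays.

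The 35 genes and the other lists were chosen with earlier results of these data known. Values in every array are given for Myc, for the 8 called members with the largest differences and for the H/ACA proteins; of the other lists at most 3 called genes per time are named. Rrp9, Dkc1, Ddx21, Tsr1 at 4 h, Bysl at 16 h, Max and Mycn, and the uncalled luminal markers, Adipoq and Krt8 were named after their values had been seen. Alternatives were other filters, floors, scalings, probe set rules, variance models, thresholds, controls and the omission of each array.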

Additional observations from a re-analysis of the deposited data

Results flagged for a closer look

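The progesterone difference of 4 members (11.4%) differed between the 4 times by the moderated F-test of limma, a share near the 9.98% of all genes. The adjusted p was 0.000145 for Npm1, 0.00197 for Myc, 0.0232 for Bysl and 0.0488 for Ncl. For Npm1, Myc and Ncl the 76 h difference was the highest of the 4, and for Bysl the differences were -0.29, 0.22, 0.04 and -0.38 at 4, 16, 28 and 76 h. When 1 array was left out at a time, the F-test called Myc and Npm1 in all 24 fits, Bysl in 19 and Ncl in 7.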

How the results depend on the processing

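Of 15 other settings, array weights moved the 76 h count of members most. With them (0.216 to 5.49 per array) the counts called became 10, 14, 1 and 24 at 4, 16, 28 and 76 h, 13 for the 28 h oil arrays and 28 for the F-test. The 76 h difference lay above that at 4, 16 and 28 h for 21, 23 and 12. For the 28 h oil arrays, the F-test and the comparisons between times, all genes were not counted under array weights. Those counts therefore have no background share. That setting called 2769, 7319, 1627 and 4818 of all 12336 genes, and Rrp9 at 16 h turned to -0.45 under it (main value 0.08). The cause was not tested.

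The replicate numbers did not meet the criterion for pairing, a correlation over 0.1 in every pair: same-numbered arrays correlated in their deviations with r from -0.02 to 0.34 and others from -0.46 to 0.44, 6 of 12 pairs were over 0.1, and 8 of 12 progesterone arrays correlated best with their own number, a hint of shared deviations from the data and not from the design. With the replicate block the counts were 16 at 76 h, 1 at 28 h, 11 for the F-test and 12, 6 and 4 for 76 h above 4, 16 and 28 h. Called at 76 h besides the 10 were Rrp9 (adjusted p = 0.00734), Ftsj3 (0.0159), Nop16 (0.018), Nop58 (0.0276), Tsr1 (0.029) and Gnl3 (0.0403). How many of all genes the block called was not counted, so the growth from 10 to 16 has no background share.

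At an adjusted p under 0.01 the counts were 3 at 76 h, 2 for the F-test, 2 above 4 h and 1 above 28 h. That threshold called 1268 of all 12336 genes at 76 h, beside 2182 at the main threshold. At 0.1, 5 members lay above 16 h. For the F-test and the comparisons between times, all genes were counted in the main fit only. The fit to the 6 arrays of 76 h called 18, and how many of all genes it called was not counted. With no filter and with quantile normalization 3 lay above 4 h, and with a gene's probe sets averaged 5 above 16 h. With other-time oil arrays as controls the 76 h median was 0.15, and 2 members were called at 4 h and 1 at 28 h. Leaving out 1 array gave 0 to 2 at 4 h (2 without progesterone replicate 3 at 4 h), 4 to 12 at 76 h, 2 to 9 for the F-test, and 2 to 9, 2 to 8 and 1 to 4 above 4, 16 and 28 h. The same fits called 1375 to 2382 of all genes at 76 h, beside 2182 in the main fit. Among single genes called at 76 h, 338 values under other settings kept direction and call, 52 lost the call and none turned. Utp20 lost it with no filter, quantile normalization, median centring or no intensity trend, Nop56 and Pes1 with median centring, and Pes1 with the mean of probe sets. That last setting also called Tsr1 (0.34) and Mybbp1a (0.31) at 76 h, which the main fit did not.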
